A study of Mus musculus with 10 samples.

Results

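The miRNA profile described here is that of control adipocyte precursors (APs), the fibroblast-like cells of fat tissue that can become adipocytes, cultured without the cytokine IL-4. It was taken from the 2 control small RNA libraries, chosen by their labels, of 4 small RNA libraries and 10 samples in the whole series. The cells came from the subcutaneous white adipose tissue of C57BL/6J mice, were depleted of CD45- and CD31-positive cells, were then enriched for SCA-1-positive cells on magnetic columns, and were grown in DMEM F12 with fetal bovine serum. Neither control culture received IL-4, and both were harvested at the same time as the cultures given IL-4 for 2 days. They are described as biological replicates, but how many animals gave each culture is not given in the sources used here, so the spread between them is that of these 2 libraries. No comparison with the IL-4 cultures was made. The only test was a chi-square test of the 2 control libraries against each other.

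miRNAs are small non-coding RNAs that lower the translation and stability of messenger RNAs. A primary transcript folds into hairpins that Drosha and Dicer cut into a short duplex, and an Argonaute protein keeps one strand of it. The kept strand can come from the 5′ side of the hairpin (the 5p arm) or from its 3′ side (the 3p arm). Pairing to targets rests mainly on the seed, bases 2 to 8 from the 5′ end of the mature miRNA, so miRNAs that share a seed are grouped in families. In APs, miRNAs act on proliferation and on the choice to differentiate: miR-143 and the miR-30 family are known to favour adipocyte formation, whereas miR-27 and let-7 are known to restrain it.

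The sequences below belong to the most abundant seed families, shown because these families carried most of the reads. They are RefSeq sequences of the GRCm38.p6 build with the same letters as in the deposited tables, written 5′ to 3′ with the seed in capitals. The first pair is miR-10a and miR-10b, which share a seed and differ by U12A, counted from 1 at the 5′ end with the base of miR-10a first.
miR-10a-5p: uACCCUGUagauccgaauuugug
miR-10b-5p: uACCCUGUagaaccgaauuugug
Each of the next was the only or by far the most read member of its seed family, with miR-199a-3p standing for miR-199b-3p as well.
miR-21a-5p: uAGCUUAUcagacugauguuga
miR-22-3p: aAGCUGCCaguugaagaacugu
miR-148a-3p: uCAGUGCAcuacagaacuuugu
miR-199a-3p: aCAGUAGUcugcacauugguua
miR-191-5p: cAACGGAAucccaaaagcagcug
miR-127-3p: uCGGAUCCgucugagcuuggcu
The let-7 family shared the seed GAGGUAG over several abundant members, and the miR-30, miR-26 and miR-99/100 families also had more than 1 member with at least 5% of the family's reads.
let-7f-5p: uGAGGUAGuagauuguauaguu
let-7c-5p: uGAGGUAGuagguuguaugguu
let-7i-5p: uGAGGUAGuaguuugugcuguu
let-7a-5p: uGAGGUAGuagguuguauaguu
miR-30a-5p: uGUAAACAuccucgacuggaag
miR-30e-5p: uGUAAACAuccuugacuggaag
miR-26a-5p: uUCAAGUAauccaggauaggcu
miR-26b-5p: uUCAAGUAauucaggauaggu
miR-99b-5p: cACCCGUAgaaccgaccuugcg
miR-100-5p: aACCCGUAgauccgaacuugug

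The tables list read counts for 740 hairpins in control replicate 1 and 758 in control replicate 2, with a summed total count of 29165188 and 39779163. A mature miRNA that several hairpins list was counted once, with its largest count, which left 23790821 and 32004058 mature miRNA reads. All shares below are percent of these mature reads. Of 1089 miRNAs with a read in either library, 894 had at least 1 read in both, 388 had at least 100 in both, and 95 had at least 10000 in both. The widest 95% Wilson interval among the 30 most abundant miRNAs was ± 0.0163 percentage points, so counting error was small beside the spread between the libraries. Intervals and limits here cover counting error only, since reads without molecular identifiers are not independent molecules. A read share is also not a molar share: adapters are joined to some small RNAs more readily than to others, and this was not tested here. In cultures sequenced in bulk, a change in cell types and a change in RNA per cell cannot be told apart.

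The reads were held by few miRNAs. The most abundant miRNA took 20.7% of the reads in replicate 1 and 16.0% in replicate 2, and the 3 most abundant took 45.2% and 42.3%. The 10 most abundant took 64.9% and 64.4%, the 50 most abundant 93.0% in both libraries, and miRNAs with under 100 reads only 0.0346% and 0.0269%. A total of 50% of the reads was reached with 4 miRNAs in replicate 1 and with 5 in replicate 2. Of the 10 most abundant miRNAs of each library, 9 were shared, and of the 30 most abundant, 28.

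**Figure D1:**
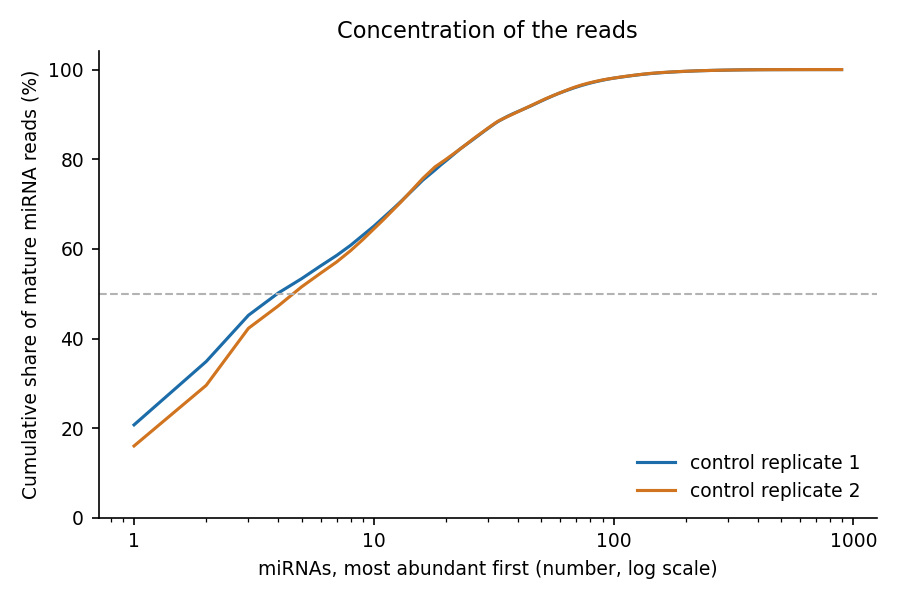
Cumulative share of the mature miRNA reads (y axis, percent) against the number of miRNAs counted from the most abundant down (x axis, log scale), with a line for each control library and a dashed line at 50%. The line of replicate 1 crosses 50% at 4 miRNAs and that of replicate 2 at 5, and both lie at 93.0% by 50 miRNAs.

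The same 3 miRNAs led both libraries, in a different order. miR-10a-5p, encoded among the Hox genes that set position along the body axis, had 4934418 reads in replicate 1 and 4070022 in replicate 2. It ranked 1 with 20.7% and 3 with 12.7%, a mean of 16.7% ± 5.67 (SD, n = 2). miR-21a-5p, a miRNA abundant in many fibroblasts and raised in fibrosis, had 3362614 and 4330228 reads and ranked 2 in both, at 14.1% and 13.5%. miR-143-3p, a miRNA of smooth muscle and other mesenchymal cells that favours adipocyte differentiation, had 2453005 and 5131440 reads. It ranked 3 with 10.3% in replicate 1 and 1 with 16.0% in replicate 2, a mean of 13.2% ± 4.05. The order of these 3 was therefore not fixed by 2 libraries, and their means lay closer together than the spread of miR-10a-5p or miR-143-3p.

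The next ranks were steadier. miR-22-3p, which acts in heart and muscle growth, took 4.98% and 5.02% of the reads and ranked 4 in both libraries. miR-148a-3p, which targets the DNA methyltransferase Dnmt1, ranked 5 in both, with 3.19% and 4.24%. miR-26a-5p ranked 6 in both, with 2.85% and 3.04%. miR-191-5p followed with 2.33% and 2.48%, and miR-199a-3p with 2.25% and 2.51%. miR-199b-3p has the same sequence as miR-199a-3p and carries the same 535874 and 802927 reads under its own name, so these reads enter the total 2 times. miR-127-3p, from the imprinted Dlk1-Dio3 domain, took 1.84% and 2.36%.

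The gaps among these ranks were small beside the spread. The means of miR-191-5p (2.40% ± 0.102), miR-199a-3p (2.38% ± 0.181) and miR-127-3p (2.10% ± 0.370) overlapped within 1 SD, and those of ranks 11 to 16 lay between 1.67% (miR-16-5p) and 1.85% (miR-99b-5p). miR-22-3p stood clear of both neighbours: its 2 values differed by less than the gap to miR-143-3p above and to miR-148a-3p below.

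**Figure D2:**
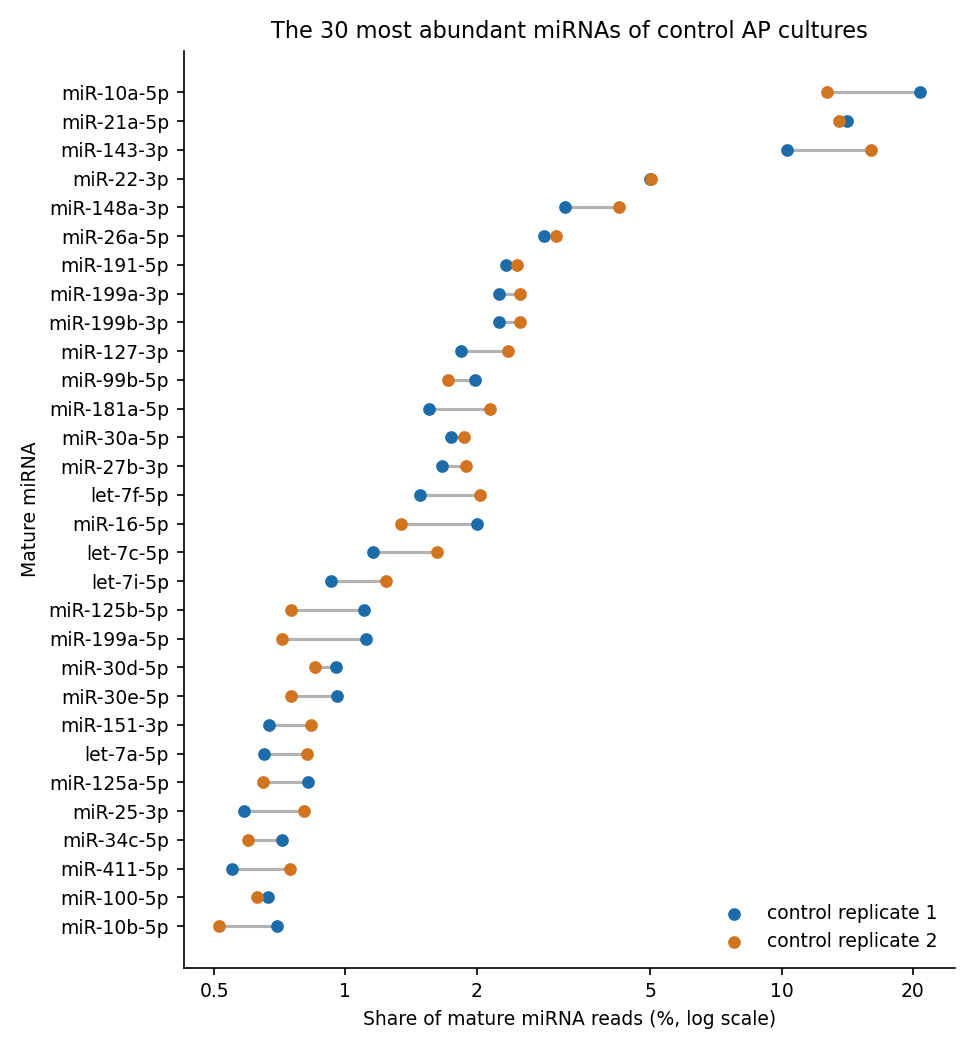
Share of mature miRNA reads (x axis, percent, log scale) of the 30 miRNAs with the highest mean share (y axis), with 1 point for each control library and a grey line between them. miR-10a-5p and miR-143-3p show the longest lines among the first 5, at 20.7% and 12.7% and at 10.3% and 16.0%, while the points of miR-22-3p lie on each other at 4.98% and 5.02%.

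The 30 most abundant miRNAs had 21 different seeds. Of the 30, 21 came from a 5p arm and 9 from a 3p arm, 19 began with U, 6 with A and 5 with C. Replicate 2 was the higher library for 18 of them, and for 27 the libraries lay within 1.5-fold of each other. The 3 beyond 1.5-fold were miR-10a-5p (1.63-fold higher in replicate 1), miR-143-3p (1.56-fold higher in replicate 2) and miR-199a-5p (1.56-fold higher in replicate 1). Below rank 10 stood miR-99b-5p, miR-181a-5p, miR-30a-5p, miR-27b-3p, let-7f-5p and miR-16-5p, each between 1.34% and 2.14% in either library. miR-27b-3p, which targets the adipocyte regulator Pparg, had 395677 and 605097 reads. Ranks 17 to 30 were held by let-7c-5p, let-7i-5p, miR-125b-5p, miR-199a-5p, miR-30d-5p, miR-30e-5p, miR-151-3p, let-7a-5p, miR-125a-5p, miR-25-3p, miR-34c-5p, miR-411-5p, miR-100-5p and miR-10b-5p, down to a mean of 0.604% ± 0.131 for miR-10b-5p.

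The hairpins of the leading miRNAs lie in different kinds of transcript on GRCm38, given here from the NCBI annotation. mir-10a is at chromosome 11, 96317165 to 96317274, plus strand, in an intron of the homeobox gene Hoxb3. mir-21a is on the same chromosome at 86584067 to 86584158, minus strand, in an exon of Vmp1. mir-22 is there too, at 75463716 to 75463810, plus strand, in an exon of the long non-coding RNA Mir22hg, so all 3 share chromosome 11. mir-143 lies in an intron of the long non-coding RNA Carmn. mir-191 is at chromosome 9, 108568319 to 108568392, plus strand, in an exon of Dalrd3. mir-199a-2 is at chromosome 1, 162217814 to 162217923, plus strand, in an exon of the non-coding Dnm3os. Of the 813 hairpins in either library, 806 could be placed, and 581 of these overlapped an annotated gene.

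Grouping by seed gave 746 families with a read in both libraries, 650 of them with a single miRNA and 96 with several. The families with several members carried 74.1% and 67.3% of the reads. The 10 most abundant families took 73.9% in replicate 1 and 73.7% in replicate 2. Of 74 families with several members and at least 100 reads in each library, the most read member averaged at least 90% of the family in 29.

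The miR-10 family (seed ACCCUGU) took 21.4% of the reads in replicate 1, above every other family, and 13.2% in replicate 2, below those of miR-143 and miR-21. It consisted almost wholly of miR-10a-5p, with 96.7% and 96.1% of its reads. The remainder was miR-10b-5p, encoded within introns of Hoxd3 and Hoxd4 transcripts, with 165771 and 163881 reads. In the miR-21 family, miR-21a-5p held over 99% and miR-21c only 76 and 203 reads. The families of miR-143-3p, miR-22-3p, miR-191-5p and miR-127-3p had 1 read member each.

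The let-7 family, known for holding back growth genes such as Hmga2 and Lin28 in differentiated cells, was the most divided. It had 10 members read in both libraries and a summed share of 4.96% and 6.58%. let-7f-5p held 29.9% and 30.9% of the family, let-7c-5p 23.3% and 24.6%, let-7i-5p 18.7% and 18.9%, and let-7a-5p 13.1% and 12.4%. The other 6 members each held under 5% in both libraries. let-7c-5p differs from let-7f-5p by A12G and A19G, let-7a-5p by A12G alone, and let-7i-5p by A12U, A17G, U18C and A19U, with positions counted from 1 at the 5′ end and the base of let-7f-5p first. The order of the 4 leading members was the same in both libraries, and no member's part of the family moved by more than the 1.30 points of let-7c-5p.

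The remaining families among the 12 most abundant were of middle size. The miR-199-3p family took 4.50% and 5.02%, but its 2 members are 1 sequence, and with each sequence counted once it took 2.32% and 2.59%. In the miR-148/152 family, 3.35% and 4.43% of the reads, miR-148a-3p held 94.98% and 95.75%, ahead of miR-148b-3p and miR-152-3p. The miR-30 family, 3.92% and 3.70%, was shared by miR-30a-5p with 44.5% and 50.5% of it, miR-30d-5p with 24.3% and 23.0%, and miR-30e-5p with 24.4% and 20.3%. In the miR-26 family, 3.36% and 3.58%, miR-26b-5p held 15.2% and 15.1% beside miR-26a-5p. In the miR-99/100 family, 2.90% and 2.60%, miR-99b-5p held 68.5% and 66.3%, miR-100-5p 22.9% and 24.1% and miR-99a-5p 8.56% and 9.56%. The parts of the 4 leading let-7 members and of miR-10a-5p moved less between the libraries than the families themselves: the let-7 family was 1.33-fold higher in replicate 2 and the miR-10 family 1.62-fold higher in replicate 1.

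**Figure D3:**
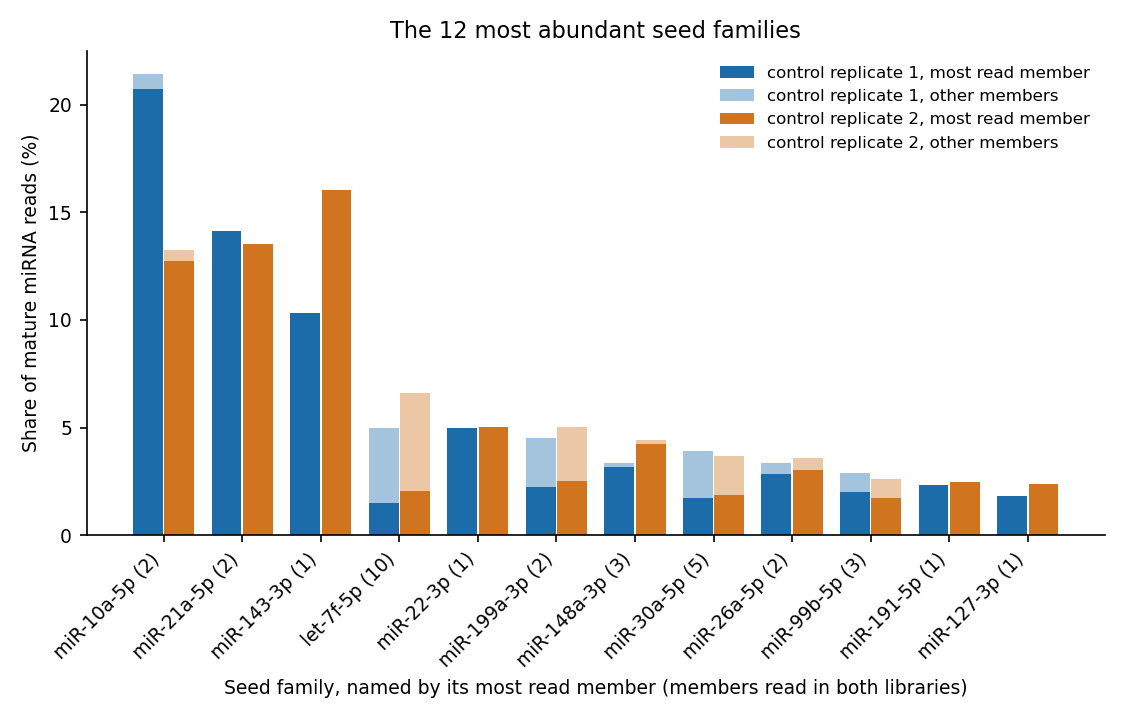
Share of mature miRNA reads (y axis, percent) of the 12 most abundant seed families (x axis, named by the most read member with the number of members read in both libraries), 1 bar for each control library, with the most read member in full colour and the others in light colour. The let-7f-5p bars have the largest light part, from 9 further members, while the miR-10a-5p, miR-21a-5p and miR-143-3p bars are nearly or wholly of 1 member.

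Several abundant names had near-identical sequences, which bears on their counts because a read with an error could be given to its neighbour. Among the 215 miRNAs with at least 1000 reads in both libraries, 31 pairs differed by at most 1 base over the shared positions, allowing an offset of up to 2 bases, and these pairs held 54 miRNAs. Counting each identical or nested sequence only once removed 2.81% and 3.18% of the mature reads, the surplus that comes from repeated names. let-7i-5p and let-7j are shown as an example in which the differing base lies in the seed.
let-7i-5p: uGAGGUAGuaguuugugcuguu
let-7j: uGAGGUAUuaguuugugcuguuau
They differ by G8U over the shared positions, with the base of let-7i-5p first. let-7j had 56213 and 79591 reads, 25.44% and 20.03% of the count of let-7i-5p, and belongs to another seed family by this base. miR-10b-5p had 3.36% and 4.03% of the count of miR-10a-5p. How many reads of either pair were given to the wrong name was not tested.

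The share of reads on each arm could be measured for 661 hairpins with both arms annotated, 286 of them with at least 100 reads over both arms in each library. Of these, 102 hairpins (35.7%) had 90% or more of their reads on the 5p arm in both libraries, 80 (28.0%) had 90% or more on the 3p arm, and 104 (36.4%) were mixed. Of the 286, 96 share an arm with another hairpin, some of them copies with the same counts, and the other 190 held 64 5p hairpins, 60 3p hairpins and 66 mixed ones. In 94 hairpins, at least 99% of the reads were on 1 arm in both libraries. The 5p arms held 68.9% and 61.4% of the arm reads of these hairpins. The leading arm was the same in both libraries for 278 of 286 hairpins, and the 5p share moved by under 5 percentage points for 230.

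The 30 most abundant miRNAs came from 37 hairpins in this set, 25 of them 5p hairpins, 7 of them 3p hairpins and 5 mixed. mir-10a had 4934418 and 4070022 reads on the 5p arm against 1490 and 2008 on the 3p arm. mir-143 was its mirror image, with 483 and 569 reads on the 5p arm and 2453005 and 5131440 on the 3p arm. mir-22 had a 5p share of 0.0928% and 0.0885%, and mir-191 had only 108 and 235 reads on its 3p arm beside 554891 and 792606 on its 5p arm.

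The 5 mixed hairpins were mir-199a-1, mir-199a-2, mir-125b-1, mir-125b-2 and mir-151. In mir-199a-2 the 5p arm had 265832 and 228753 reads and the 3p arm 535874 and 802927, a 5p share of 33.2% and 22.2%. Both of these counts also hold reads of mir-199a-1, which gives the same 5p and 3p miRNAs. The 3p count further holds reads of mir-199b, which gives the same 3p sequence but had only 15882 and 13114 reads on its own 5p arm. In mir-125b-1 the 5p share was 89.3% and 81.8%, and in mir-151 it was 15.9% and 15.8%. The 5p count of mir-125b-1 also holds reads of mir-125b-2, which gives the same 5p sequence but its own 3p arm. This raises the 5p share of both copies, whereas mir-151 shares no arm. mir-125b-1 and mir-151 each gave an abundant less read arm: miR-125b-1-3p had 31322 and 53498 reads, and miR-151-5p had 30054 and 50154.

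In 12 hairpins both arms had at least 10000 reads in each library. Among them mir-21a gave 36122 and 69344 reads of miR-21a-3p, although this arm was only 1.06% and 1.58% of the hairpin. mir-148a gave 13404 and 30095 reads of miR-148a-5p, 1.74% and 2.17% of its hairpin. The less read arm of an abundant hairpin can thus outnumber most miRNAs, since only 95 miRNAs had at least 10000 reads in both libraries.

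Of 178 hairpins with at least 1000 reads in each library, 20 kept a 5p share between 25% and 75% in both. The most read of them were mir-145a, mir-434, let-7d, mir-136, mir-152, mir-28a, mir-423 and mir-34b. let-7d was the let-7 hairpin in this set, with 16984 and 22365 reads on the 5p arm and 11639 and 16193 on the 3p arm, a 5p share of 59.3% and 58.0%. mir-434, an imprinted hairpin next to mir-127 and mir-136, had 20387 and 18494 reads on the 5p arm against 23213 and 29447 on the 3p arm. Its 2 arms are shown with those of let-7d, because both arms of each hairpin, with unlike seeds, were read at a similar level.
let-7d-5p: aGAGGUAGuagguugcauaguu
let-7d-3p: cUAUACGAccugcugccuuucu
miR-434-5p: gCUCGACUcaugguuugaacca
miR-434-3p: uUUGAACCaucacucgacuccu
The lowest of the 20 by reads were mir-3068, mir-700 and mir-376b, and the widest exact Clopper-Pearson 95% interval in the set was ± 2.97 points. The 12 others, mir-345, mir-299a, mir-362, mir-350, mir-296, mir-674, mir-329, mir-369, mir-455 and these 3, had between 1034 and 5034 arm reads in a library. mir-369 and mir-455 held the same balance in both libraries, at 47.9% and 48.5% and at 57.8% and 57.7%.

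**Figure D4:**
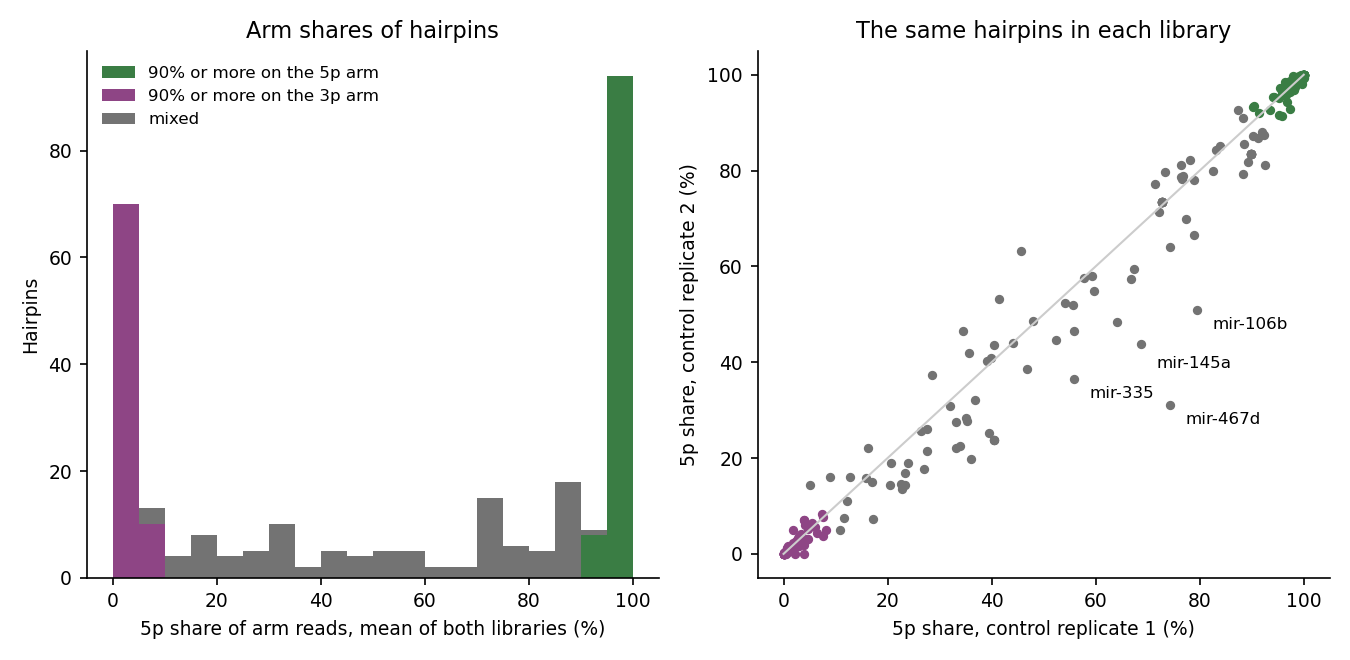
Left, number of hairpins (y axis) by the mean 5p share of their arm reads (x axis, percent) for the 286 hairpins with at least 100 reads in each control library, coloured by class. Right, the 5p share of each hairpin in replicate 1 (x axis) and replicate 2 (y axis) with the line of equality. Most hairpins stand at either end of the scale, and mir-106b, mir-145a and mir-467d lie farthest below the line.

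The mixed hairpins leaned to one library. Their 5p share was lower in replicate 2 for 68 and higher for 36 of 104, with a median difference of -3.80 points. Copies of 1 miRNA pair at several hairpins count more than once here. Among the 66 mixed hairpins that share no arm with another, 45 were lower and 21 higher, with a median difference of -2.77 points. Over all 286 hairpins, 153 were lower and 114 higher. The difference was beyond 20 points in 3 hairpins. mir-145a had 68.7% on the 5p arm in replicate 1 and 43.8% in replicate 2, and its 5p reads were 30430 and 13343 while its 3p reads were 13881 and 17086. mir-106b, a hairpin of the miR-106b/25 cluster within the replication gene Mcm7, had 79.4% and 50.9%. mir-467d had 74.2% of 159 reads (95% interval 66.7% to 80.8%) and 31.2% of 138 reads (23.6% to 39.6%). Its 3p counts of 41 and 95 are also those of the mir-467a hairpins, which share that arm sequence. The 5p counts went apart, with 118 and 43 for mir-467d against 361 and 478 for mir-467a. The 5p share of the mir-467a hairpins was 89.8% and 83.4%.

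Reads outside both annotated arms, such as loop fragments, were rare. They came to 30615 and 41380 reads, or 0.105% and 0.104% of the total count. Of 320 hairpins with at least 100 reads in each library, 264 had under 1% of their reads outside the arms in both libraries, and 13 had over 10% in both. The 3 hairpins with the most such reads held 50.3% and 68.4% of all of them. mir-181a-2 had 8642 and 16681 reads outside its arms, more than the 11 and 26 reads of its 3p arm. mir-16-1 had 4426 and 8963, and mir-125b-2 had 2335 and 2651. The 6 names below lay mostly outside their annotated arms in both libraries, namely mir-3470b, mir-6236, mir-690, mir-377, mir-3473f and mir-452. For mir-6236 this was 676 of 682 and 729 of 743 reads.

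The control libraries were compared over the 388 miRNAs with at least 100 reads in both. By a chi-square test over these miRNAs, the counts of the libraries differed beyond sampling noise (chi-square of 3343.6 per degree of freedom). At this depth the test shows only that they are separate libraries, and the size of the differences is given instead. The median absolute log2 ratio of shares was 0.27, and 332 of the 388 miRNAs (85.6%) lay within 1.5-fold. Beyond 2-fold lay 9 miRNAs, all of them higher in replicate 1: miR-19a-3p, miR-19b-3p, miR-145a-5p, miR-221-5p, miR-106b-5p, miR-335-5p, miR-1983, miR-29c-5p and miR-96-5p.

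miR-19a-3p and miR-19b-3p, members of the miR-17/92 cluster, are shown because they had the largest differences and share a seed.
miR-19a-3p: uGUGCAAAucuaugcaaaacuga
miR-19b-3p: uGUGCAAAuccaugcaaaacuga
miR-19a-3p had 3618 and 1260 reads and was 3.86-fold higher in replicate 1. miR-19b-3p had 18482 and 7487 reads and was 3.32-fold higher. Their other arms had few reads, 22 and 15 of miR-19a-5p and 20 and 15 of miR-19b-1-5p. The remaining members of that cluster had smaller differences: miR-17-5p had 3104 and 3297 reads, miR-20a-5p 2776 and 2481, 1.51-fold higher in replicate 1, and miR-92a-3p 74439 and 115589, the last 1.15-fold higher in replicate 2. miR-145a-5p was 3.07-fold higher in replicate 1 while miR-143-3p, from the neighbouring hairpin, was 1.56-fold higher in replicate 2. miR-106b-5p was 2.29-fold higher in replicate 1 and the other arm of its hairpin, miR-106b-3p, 1.62-fold higher in replicate 2. miR-221-5p was 2.73-fold higher in replicate 1, with 5663 and 2786 reads, while miR-221-3p had 27137 and 35591 reads, a log2 ratio of -0.04. In the other direction, the 5 largest were miR-15b-3p, let-7b-3p, miR-148a-5p, miR-574-3p and miR-106b-3p, between 1.62- and 1.82-fold higher in replicate 2. What sets the libraries apart was not tested.

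**Figure D5:**
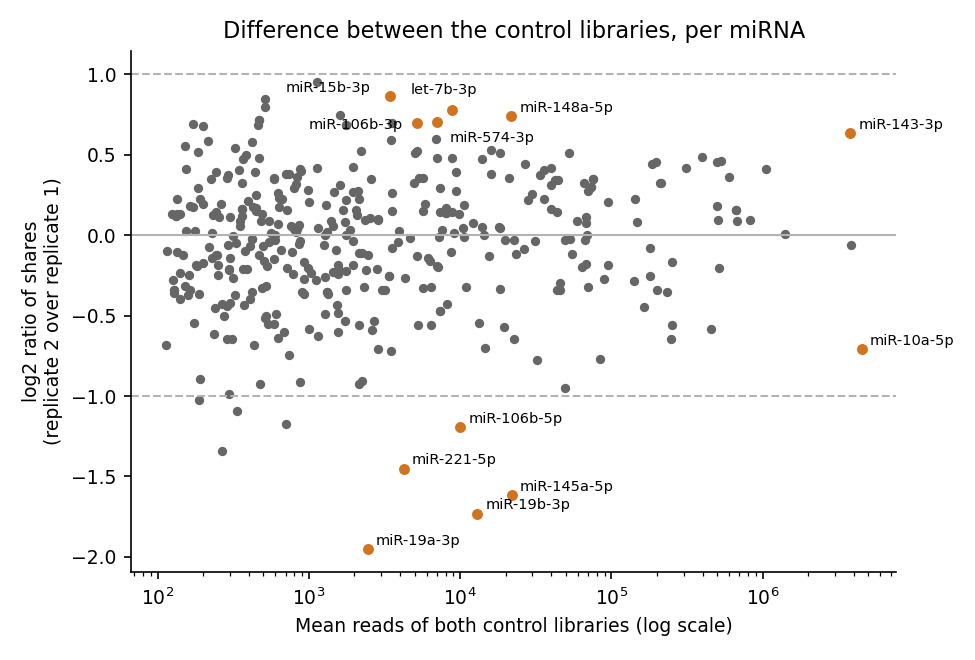
log2 ratio of shares, replicate 2 over replicate 1 (y axis), against the mean reads of both control libraries (x axis, log scale) for the 388 miRNAs with at least 100 reads in both, with dashed lines at 2-fold. The labelled points in orange are miR-10a-5p, miR-143-3p and the 5 largest differences in each direction among miRNAs with at least 1000 reads in both, and 9 points lie below the lower dashed line and none above the upper one.

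Hairpins on the same strand with starts within 10 kb of each other formed 58 clusters with 253 hairpins, and 553 hairpins stood alone. A hairpin's reads are here the sum of its arms, so a miRNA made at several places counts at each. The mir-143 and mir-145a cluster came first, with 10.5% and 16.1% of the mature reads, of which mir-143 held 98.2% and 99.4%. Members of a cluster differed widely in reads although they are thought to share a transcript. Where a member has copies elsewhere, as mir-199a-2 and mir-26a-2 do, its count also holds their reads. What its own transcript gave cannot be told apart from these. The mir-199a-2 and mir-214 pair in Dnm3os took 3.56% and 3.42%, with 44110 and 64127 reads for mir-214. The mir-26a-2 cluster, 2.85% and 3.05%, was mir-26a-2 alone in all but 1 read of mir-546.

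mir-99b, let-7e and mir-125a on chromosome 17, 17830188 to 17830879, plus strand, lie in exons of Spaca6 and took 2.95% and 2.56%. Of their reads, mir-99b had 67.4% and 67.6%, mir-125a 27.9% and 25.5%, and let-7e 4.71% and 6.89%. let-7f-1, let-7a-1 and let-7d on chromosome 13 took 2.20% and 2.91%, with let-7f-1 holding 63.7% and 67.2%. The mir-191 and mir-425 pair in Dalrd3 took 2.35% and 2.50%, with only 5271 and 6288 reads for mir-425. mir-199b with mir-3154 took 2.24% and 2.49%. mir-27b, mir-24-1 and mir-23b in Aopep took 2.04% and 2.20%, with mir-27b at 81.7% and 85.9%. The mir-181a-1 and mir-181b-1 pair took 1.69% and 2.32%.

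The imprinted Dlk1-Dio3 domain on chromosome 12 held 2 clusters of many hairpins. The cluster led by mir-127, at 109563692 to 109595388 on the plus strand, had 12 hairpins and 2.17% and 2.69% of the reads. mir-127 held 85.2% and 88.1% of it, mir-434 8.45% and 5.57%, and mir-136 4.05% and 4.14%, while mir-770, within Meg3, had 20 and 30 reads. A second stretch at 109709060 to 109747960 on the same strand, which is outside the 10 most read clusters and was named after its values were seen, had 36 hairpins and 1.44% and 1.58% of the reads. It was led by 2 hairpins far apart in it: mir-411 with 132401 and 240567 reads and mir-541 with 134734 and 148775. mir-544 was the lowest, with 1 and 5 reads.

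The 5′ base of the mature miRNA, which Argonaute proteins are known to hold in a pocket that favours U and A, was read against abundance. Among the 894 miRNAs read in both libraries, 364 (40.7%) began with U, 244 with A, 193 with C and 93 with G. Weighted by reads, U took 74.5% and 73.8%, A 16.1% and 17.3%, C 8.86% and 8.55%, and G 0.466% and 0.342%. Without the 3 most abundant miRNAs, which all begin with U, the share of U was 53.6% and 54.6%, and without the 10 most abundant it was 61.2% and 61.5%. U began 60.6% of the 33 miRNAs with a mean of 100000 reads or more, 50.7% of the next 67, 37.2% of the 121 with 1000 to 10000 and 31.2% of the 189 with 100 to 1000. The 484 miRNAs below 100 reads did not continue this order, with U in 42.6%.

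The same base differed between the arms of 1-sided hairpins. Of 182 hairpins with 90% or more of their reads on 1 arm, the more read arm began with U in 111 (61.0%) and the less read arm in 20 (11.0%). Among the 124 of them that share no arm with another hairpin, these numbers were 71 and 17. In 100 of all 182 hairpins only the more read arm began with U, in 9 only the less read arm, in 11 both and in 62 neither. The more read arm began with U in 71 of 102 5p hairpins and in 40 of 80 3p hairpins. Mature miRNAs of 22 bases made up 52.0% of the names and 52.2% and 54.1% of the reads. miRNAs of 21 bases took 16.4% and 23.0% and those of 23 bases 28.8% and 20.5%, lengths that include miR-143-3p and miR-10a-5p in turn.

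The profile was set beside lists of miRNAs known as markers of cell types. The 10 miRNAs listed for mesenchymal cells and fibroblasts, miR-143, miR-145a, miR-199a and b, miR-214, miR-21a, miR-22 and miR-10b, all had at least 10000 reads in both libraries and summed to 36.1% and 41.1% of the reads, with the miR-199-3p sequence counted under both of its names. Of all 894 miRNAs, 95 reached that level. The list was made with earlier results of these data known, so its sum is a description only and does not test the cell type label. Leukocyte miRNAs were nearly absent from these CD45-depleted cells: the 4 listed had 22 and 37 reads in sum. Of these, miR-142a-5p had 8 and 22, miR-150-5p 12 in each library, miR-223-3p 1 and 3 and miR-142a-3p 1 and 0. Endothelial miR-126a was present at a low level, with 529 and 498 reads of miR-126a-3p and 3664 and 6187 of miR-126a-5p, together 0.0176% and 0.0209%.

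Markers of other tissues were low or had no read. Epithelial miRNAs summed to 177 and 334 reads over 7 names, of which miR-203-3p made 127 and 274. Striated muscle miRNAs summed to 288 and 277 reads, of which miR-206-3p had 267 in each library, and miR-1a-3p, miR-208a-3p and miR-208b-3p had none. Of the 3 neuronal names, miR-124-3p had none, miR-9-5p 399 and 571 reads and miR-128-3p 1325 and 1672. The liver miRNA miR-122-5p had 5 reads and 1 read, and the 9 names of pluripotent cells had 0 and 2 reads in sum. A count of 0 allows up to 3 reads, or a share of up to 1.26e-05% and 9.37e-06%. Erythroid names went apart: miR-486a-5p had 54883 and 91038 reads, while miR-451a had 40 and 41 and miR-144-3p 2 and 6. miR-7a-5p, listed for endocrine cells, had 1229 and 1073 reads and miR-375-3p 7 and 11. The part of other cell types in the profile was not tested.

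miRNAs known from adipocyte biology were mostly well read in these undifferentiated cells. Of 15 miRNAs known to promote adipogenesis, 14 had at least 100 reads in both libraries and 10 at least 10000, for 18.3% and 24.2% of the reads, most of it miR-143-3p. The one below was miR-204-5p, with 17 and 25 reads. miR-378a-3p, encoded within the coactivator gene Ppargc1b, had 111727 and 175692 reads, and miR-103-3p, known to affect insulin sensitivity, 48607 and 69638. Of 20 miRNAs known to restrain adipogenesis or thermogenic adipocytes, 18 had at least 100 reads and 13 at least 10000, for 7.34% and 9.05% of the reads, led by miR-27b-3p and let-7f-5p. miR-138-5p had 82 and 121 reads and miR-133a-3p 11 and 3. Over all 894 miRNAs, 388 (43.4%) had at least 100 reads in both, and these lists were made from miRNAs that had been studied, so their counts are a description only.

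The lists closer to thermogenic fat, inflammation and growth differed widely in their sums. They too were made from miRNAs that had been studied, so their counts are a description only. Over all 894 miRNAs, 388 (43.4%) had at least 100 reads in both libraries. All 8 miRNAs known to promote thermogenic adipocytes had at least 100 reads, but they summed to only 0.476% and 0.441%, with miR-196a-5p at 61794 and 73450 reads and miR-182-5p at 45954 and 60716. miR-193b-3p and miR-365-3p, from 1 cluster known in brown fat, had 1988 and 2472 and 1527 and 1518 reads. Of 8 miRNAs of inflammation and macrophage activation, 5 had at least 100 reads in both, and their sum of 14.5% and 13.9% was nearly all miR-21a-5p. miR-146b-5p had 87058 and 103096 reads against 80 and 126 of miR-146a-5p, and miR-155-5p had 2949 and 3138. Of 12 miRNAs of the miR-17/92 cluster and its paralogs, which promote cell cycle entry, 9 had at least 100 reads, for 1.25% and 1.41%, led by miR-25-3p with 139271 and 257160. Of the paralog on the X chromosome, the miRNAs with a sequence of their own had few reads, with miR-106a-5p at 5 and 7, miR-20b-5p at 4 and 2 and miR-363-3p at none. Its other arms, miR-19b-3p and miR-92a-3p, are shared with the miR-17/92 cluster. miR-19b-3p had 18482 and 7487 reads at mir-19b-2 of the paralog and 18346 and 7432 at mir-19b-1. These reads of miR-19b-3p cannot be assigned to either place. miR-92a-3p had only 3744 and 6463 reads at mir-92a-2 of the paralog, against 74439 and 115589 at mir-92a-1. All 5 miRNAs of the Hox clusters had at least 100 reads, and they summed to 21.9% and 13.6%, nearly all miR-10a-5p.

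The 7 hairpins of the H19X locus on the X chromosome gave 13 miRNAs, all with a read in both libraries, that summed to 0.692% and 0.503%, led by miR-351-5p with 84702 and 94259 reads and miR-322-5p with 57719 and 40177. The 69 hairpins within Sfmbt2 gave 68 miRNAs, 54 of them with a read in both libraries, for 0.0121% and 0.0125% of the reads. Of these, 8 had at least 100 reads in both, against 388 of all 894 miRNAs read in both (43.4%).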

How the data were processed

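Small RNA libraries of 2 control AP cultures were made from total RNA with the TruSeq Small RNA kit and sequenced on an Illumina HiSeq. Adapters and low-quality reads were removed by the authors, who mapped the rest in turn to the mouse genome, to miRBase v21 and to Rfam and took counts from the miRDeep2 Quantifier module, whose version is not given in the sources used here. The submitters' processing notes name mm10, HISAT, StringTie, Bowtie2 and RSEM for the series with no role. The deposited tables give raw read counts per hairpin, per arm and outside the arms, which are not normalized.

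Here, a mature miRNA was given its largest count over hairpins, and shares are percent of all mature reads. Seeds were taken from the sequences in the deposited tables, since they cover every miRNA; of 894 miRNAs, 739 have the same letters in the RefSeq table of GRCm38.p6, and only these were printed. Hairpins were placed with the NCBI annotation of GRCm38. The miRNAs named were the 30 with the highest mean share, members with at least 5% of the 12 most abundant families, hairpins with a 5p share of 25% to 75% and at least 1000 reads in each library, the 10 most read clusters, the 5 largest differences in each direction between the libraries, and at most 4 of each marker list; further miRNAs named beside these were chosen after their values were seen. The members and lists were chosen with earlier results of these data known. The functions that compute ratios, arm classes and clusters were tested on simulated data. Work was done in Python 3.11.15 with pandas 2.3.3, numpy 2.4.6, scipy 1.17.1 and matplotlib 3.10.9. Alternatives were other ways to join counts over hairpins, other minimum counts, seed and arm definitions and cluster distances, and each library alone; counting identical or nested sequences once was added after the data were seen.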

Additional observations from a re-analysis of the deposited data

How the results depend on the processing

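Of 60 alternatives tried over 13 results, 44 left the result within its limit (1 SD of the libraries for a share, 1.5-fold for a number). Where the same miRNAs are counted, a share in 1 of 2 libraries always lies within 1 SD of their mean. Those of the 44 that took each library alone for a share therefore do not show stability. With shares of the summed hairpin counts in place of mature reads, the 10 most abundant miRNAs took 52.4% (main mean 64.7%), since that total counts a miRNA once for each of its hairpins; with identical and nested sequences counted once they took 66.1%, and each library alone gave 64.4% to 65.0%. A minimum of 10 reads left 567 miRNAs in place of 894. The 10 most abundant families took 73.8%, and 74.0% with bases 2 to 7 as seed, 74.0% with sums over hairpins, 74.0% with means over hairpins, and 73.6% with each sequence counted once, small moves that exceed only the very small spread of the libraries. Without hairpins that share an arm, 64 of 190 (not 102 of 286) were 5p hairpins and 66 of 190 (not 104 of 286) were mixed. With at least 1000 reads, 52 of 178 (not 80 of 286) were 3p hairpins and 51 of 178 were mixed. At that minimum, 5 of 215 miRNAs (not 9 of 388) differed beyond 2-fold. These counts fell along with the number of hairpins or miRNAs left to count. Reads outside the arms were 0.102% of the total for hairpins with at least 100 reads. The share of reads that begin with U was 74.2%, 68.9% with sums over hairpins and 76.2% with each sequence counted once. No paired analysis was possible because the 2 libraries form 1 group. The chi-square test between them was the only test, and no other result rests on it. The main limit is that 2 libraries give 1 degree of freedom for each spread: the order of miR-10a-5p, miR-21a-5p and miR-143-3p, and the arm shares of mir-145a and mir-106b, rest on libraries that differ.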
